A study of Mus musculus with 7 samples.

Results

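The natriuretic peptide system was followed through 7 genes of the mouse heart: the peptides Nppa and Nppb, the receptors Npr1 and Npr2, the proteases Corin and Pcsk6 that lead to active peptide, and the degrading enzyme Mme. They were chosen by gene symbol, and all 7 were present among the 20343 genes of the count table. The messenger RNA came from apical myocardium of 7 mice of strain NSG-DRB1*0101, called NSG-DR1 in the protocol, an immunodeficient line that carries the human HLA-DR1 molecule. The 4 control mice of this strain were untreated, and the 3 transferred mice of the same strain had been given human CD4+ T cells 6 weeks before collection. Ages, sexes and the dose of cells are not given in the sources used here. Each heart has an identifier of its own in the labels, and hearts are numbered here by accession order within a group, so that the numbers only name them.

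Natriuretic peptides are hormones that cardiomyocytes release when the heart wall is stretched. Nppa encodes the precursor of atrial natriuretic peptide and Nppb that of B-type natriuretic peptide. In the adult both genes are most active in the atria, and their return in ventricular muscle is a widely used sign of haemodynamic load. Corin, a serine protease of the cardiomyocyte surface, cuts the atrial precursor into the active hormone, and Pcsk6 activates Corin itself. Both peptides act through Npr1, a receptor that makes cyclic GMP, while Npr2 is the related receptor for C-type natriuretic peptide. Mme, also known as neprilysin or CD10, breaks the circulating peptides down.

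Nppb and Nppa lie side by side on the plus strand of chromosome 4 (GRCm38), Nppb at positions 147985786 to 147987205 and Nppa at 148000722 to 148002074, with 13516 bases between them. Their RefSeq promoter windows (GRCm38.p6, 250 bases before to 50 bases after an annotated start, plus strand) are shown because these 2 genes varied together from heart to heart. The start used by RefSeq is position 148000722 for Nppa, as in the count table, and 147985900 for Nppb, which lies 114 bases past the start in the count table. Distances are counted from these RefSeq starts. Capitals mark matches to the motifs searched, each on both strands. These were the TATA box, written TATAAA, the M-CAT element, written CATTCC, and the NKE element of homeodomain factors, written TNAAGTG. Sites of GATA factors were searched as NGATAN with A or T as the first and A or G as the last letter. The AP-1 site was searched as TGANTCA and the cyclic AMP response element as TGACGTCA. The CArG box and the MEF2 site were searched too.
Nppa promoter, chr4:148000472-148000771: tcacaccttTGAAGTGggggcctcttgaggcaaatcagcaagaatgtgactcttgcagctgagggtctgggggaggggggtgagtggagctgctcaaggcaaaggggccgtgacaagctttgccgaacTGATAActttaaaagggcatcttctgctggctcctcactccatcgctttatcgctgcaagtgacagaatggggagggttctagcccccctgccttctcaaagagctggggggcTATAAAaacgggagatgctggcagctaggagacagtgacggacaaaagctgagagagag
Nppb promoter, chr4:147985650-147985949: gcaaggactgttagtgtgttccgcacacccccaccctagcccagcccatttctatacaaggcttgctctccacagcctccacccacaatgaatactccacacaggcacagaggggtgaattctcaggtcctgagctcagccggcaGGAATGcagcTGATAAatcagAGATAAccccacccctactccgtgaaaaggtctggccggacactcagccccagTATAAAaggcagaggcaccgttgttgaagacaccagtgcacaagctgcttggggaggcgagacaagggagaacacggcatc

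Both windows held a TATA box, which 13.6% of all 32851 promoter windows of this length hold, and at least 1 GATA site, which 29.8% hold. The TATA box began 9 bases before the annotated start of Nppa and 31 bases before that of Nppb. The Nppa window had 1 GATA site, beginning 122 bases before the start, and an NKE match 241 bases before it, a motif found in 11.5% of windows. The Nppb window had 2 GATA sites, beginning 95 and 84 bases before the start, and an M-CAT match in the reverse direction from 105 bases before it, a motif found in 14.7% of windows. No motif matches overlapped in these windows. A match describes the letters only, and binding was not measured.

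Levels are given as counts-per-million (CPM) scaled with TMM, a factor that corrects for library composition. The column totals behind them ran from 16402179 to 25190560 counts and cover chromosomes 1 to 7 and the start of chromosome 8 only. Ventricular muscle genes were abundant in every heart, Myl2 averaging 19722 ± 866 CPM in controls (SD, n = 4) and 20297 ± 3331 CPM after transfer (SD, n = 3). The 7 tested ventricular and general cardiomyocyte markers summed to between 93360 and 101218 CPM in control hearts and between 94790 and 106807 CPM in transferred hearts. Genes of the atrial marker list were counted as well. Their control means ran from 3.38 CPM for Sbk3 to 2941 CPM for Pam, with Kcnk3 at 1011 ± 124 CPM (SD, n = 4). The atrial growth factor Bmp10 had 10 counts in all over the control hearts and 2 over the transferred hearts. Whether the samples held atrial tissue was not tested. The labels divide the animals' identifiers into 2 forms, one that holds letters (control heart 1, transferred heart 1) and one of digits only (5 hearts), and results within these forms are given beside the genes.

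Transferred hearts were compared with control hearts by the quasi-likelihood test of edgeR, and 0 of the 7 genes passed at an adjusted p of 0.05, against 0.235% of the 7667 genes tested (0.13% higher and 0.104% lower). Before adjustment 1 of the 7, Corin, had a p under 0.05, against 12.4% of all tested genes, and Corin was also the only 1 of the 7 whose groups did not overlap, against 11.2% of all tested genes (5.99% higher and 5.22% lower). DESeq2 called 1 of the 7, again Corin, against 3.02% of the 8273 genes to which it gave an adjusted p. Limma-voom called 0 of the 7 and 0% of all tested genes, and 2 of the 7 were under 0.05 before adjustment, against 11.8% of all tested genes. The median log2 fold change was 0.00 for the 7 genes and 0.00 for all tested genes. All 7 genes passed the filter on low counts.

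**Figure D1:**
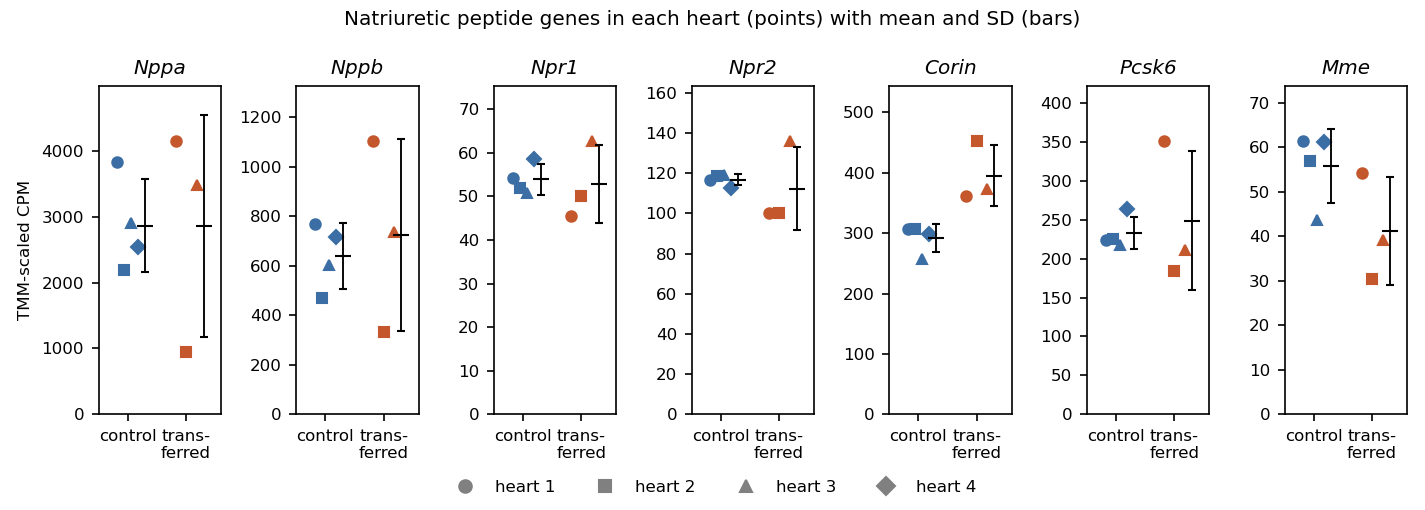
TMM-scaled CPM of the 7 genes in each of the 4 control hearts (blue) and 3 transferred hearts (orange), with a separate linear axis from 0 for each gene, the marker shape giving the heart number and black bars the mean and SD. Only Corin has all transferred hearts above all control hearts, and transferred heart 2 is the lowest of the 7 hearts for Nppa and Nppb.

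Nppa was the most abundant of the 7 genes and the most variable. Its level was 3830, 2187, 2899 and 2545 CPM in control hearts 1 to 4 and 4152, 946 and 3474 CPM in transferred hearts 1 to 3. Transferred heart 2 was far below every other heart, at 33.02% of the control mean, while transferred hearts 1 and 3 were at 145% and 121% of it. The group means were almost equal, 2866 ± 706 CPM (SD, n = 4) and 2857 ± 1689 CPM (SD, n = 3). That gives a log2 fold change of 0.00 (95% interval from -1.13 to 1.12, edgeR adjusted p = 0.997). This interval, from 0.458-fold to 2.17-fold, is wide because the transferred hearts differed among themselves, and a change of up to about that size in either direction was not detectable here. Without transferred heart 2 the log2 fold change was 0.41 (SE 0.20, edgeR adjusted p = 0.600), and its sign also turned without control heart 1 (0.17) and without control heart 3 (0.00). Between the 2 hearts with letters the log2 difference was 0.12, and within the 5 hearts with numbers alone the log2 fold change was -0.20 (edgeR adjusted p = 0.907). In whole tissue, fewer cells of a type and less RNA per cell cannot be told apart.

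Nppb followed Nppa. Its level was 768, 469, 604 and 715 CPM in control hearts 1 to 4 and 1105, 331 and 735 CPM in transferred hearts 1 to 3. Transferred heart 1 was above and transferred heart 2 below every control heart, and transferred heart 3 lay inside the control range. On the log2 scale the fold change was 0.18 (95% interval from -0.72 to 1.08, edgeR adjusted p = 0.893). It was 0.53 without transferred heart 2 (edgeR adjusted p = 0.524) and -0.26 without transferred heart 1 (edgeR adjusted p = 0.762), so its sign rested on transferred heart 1. Between the hearts with letters in their identifier the log2 difference was 0.53, and within the 5 hearts with numbers alone the log2 fold change was -0.16. Of the 7 Nppb values, 2 had a fractional part, and no Nppa value did. How the fractions arose is not stated in the submitters' notes, and a whole number does not show that no read was divided.

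The spread between transferred hearts was wide for both peptides. The coefficient of variation of Nppa was 24.6% in control hearts and 59.1% in transferred hearts, and only 4.94% of tested genes varied more among the transferred hearts. For Nppb these values were 20.7% and 53.5%, with 6.52% of tested genes varying more among the transferred hearts. The median over all tested genes was 11.1% in control hearts and 12.5% in transferred hearts. The difference in spread between the groups was not tested.

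Over the 7 hearts, log2 CPM of Nppa and Nppb rose and fell together. Pearson's r was 0.92 (exact permutation p = 0.00139, 0.0292 adjusted over the 21 pairs of the 7 genes), and Spearman's rho was 0.96 (exact permutation p = 0.00278, 0.0583 adjusted). The 2 hearts farthest from the median of Nppa were transferred hearts 1 and 2, and over the other 5 hearts r was 0.81. Computed on deviations from the group means r was 0.95, and it stayed between 0.86 and 0.94 when single hearts were left out. Nppa and Nppb of a heart come from the same library, so depth and composition are shared. No other pair passed after adjustment of Pearson's p. Nppb and Pcsk6 had an r of 0.81 (exact permutation p = 0.0329, 0.236 adjusted), which was 0.12 without transferred hearts 1 and 2 and so rested on them.

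**Figure D2:**
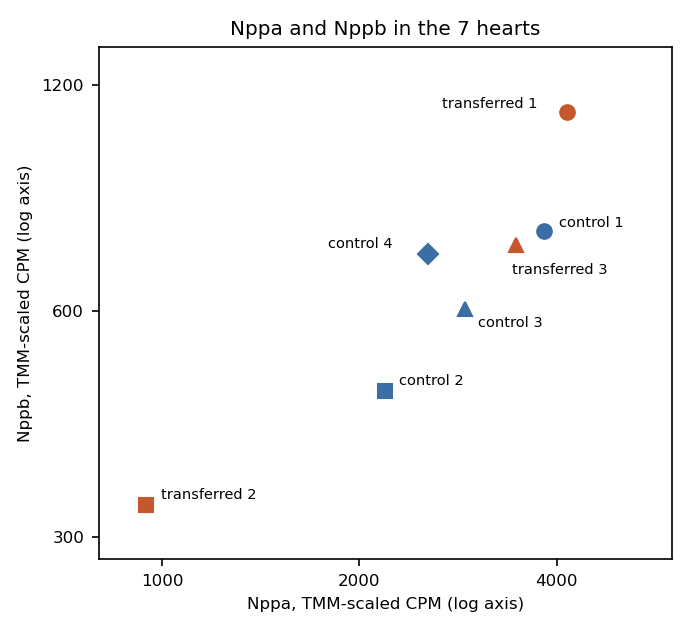
Nppb against Nppa in each of the 7 hearts, both as TMM-scaled CPM on log axes, with control hearts in blue, transferred hearts in orange and each heart labelled. The points run from transferred heart 2 at the lower left, with 946 CPM of Nppa and 331 CPM of Nppb, to transferred heart 1 at the upper right, with 4152 and 1105 CPM.

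The balance of the 2 peptides, compared per kilobase of exon, needs no scaling between libraries. Nppa exceeded Nppb 7.11, 6.64, 6.84 and 5.07 times in control hearts 1 to 4 and 5.36, 4.08 and 6.74 times in transferred hearts 1 to 3. The excess was smallest in transferred heart 2, the heart with the least of both, and the groups overlapped. The log2 ratio of Nppb to Nppa was -2.67 ± 0.22 in controls (SD, n = 4) and -2.40 ± 0.36 after transfer (SD, n = 3). The difference of 0.27 was not beyond the spread (two-sided exact permutation p = 0.314 over 35 splits, where 0.0286 is the smallest possible).

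Of the genes within 50 kb of Nppb and Nppa, 3 are described here, and none of them passed the adjusted threshold or had groups that did not overlap. Clcn6, a chloride transporter gene that lies just beyond Nppa on the opposite strand, was at 35.02 CPM in control and 34.9 CPM in transferred hearts on average, with a log2 fold change of 0.00 (SE 0.09). For Plod1, a collagen lysyl hydroxylase, the value was -0.16 (SE 0.12), and for 2510039O18Rik it was -0.02 (SE 0.07). Each of these SEs was smaller than the 0.47 of Nppa and the 0.38 of Nppb.

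Both receptors were lower per kilobase than the peptides, Corin and Pcsk6, and nearly even between the group means. Npr1 (chromosome 3, positions 90450591 to 90465928, minus strand) was at 54.3, 51.9, 50.7 and 58.6 CPM in control hearts and at 45.4, 50.1 and 62.8 CPM in transferred hearts. All 3 transferred hearts lay outside the control range, 2 below it and 1 above. Between the means the log2 fold change was -0.03 (95% interval from -0.29 to 0.23, edgeR adjusted p = 0.948). Its sign turned without control heart 4 (0.01), transferred heart 1 (0.07) or transferred heart 2 (0.01), and it was -0.17 without transferred heart 3 (edgeR adjusted p = 0.522). Between the 2 hearts with letters it was -0.26, and within the 5 with numbers alone 0.08.

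Npr2 (chromosome 4, positions 43629015 to 43651437, plus strand) had the same arrangement. It was at 117, 119, 119 and 113 CPM in control hearts and at 100.2, 100.3 and 136 CPM in transferred hearts. Again transferred hearts 1 and 2 were below and transferred heart 3 above all control hearts. The log2 fold change was -0.06 (95% interval from -0.30 to 0.19, edgeR adjusted p = 0.876), which bounds a change of the mean between 0.81-fold and 1.14-fold. It was 0.02 both without transferred heart 1 and without transferred heart 2, and -0.22 without transferred heart 3 (edgeR adjusted p = 0.239). By identifier form it was -0.22 between the 2 hearts with letters and 0.02 within the 5 with numbers alone. Control hearts were close together for Npr2, with a coefficient of variation of 2.43%, and 97.7% of tested genes varied more among control hearts. Among transferred hearts it was 18.5%. Spag8 overlaps the end of Npr2 on the opposite strand but had only 1 to 4 counts in a heart.

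The ratio of the receptors did not separate the groups. Per kilobase of exon, Npr2 exceeded Npr1 by 1.21 to 1.47 times in control hearts and by 1.25 to 1.38 times in transferred hearts. The difference in the log2 ratio of Npr1 to Npr2 was 0.03 (two-sided exact permutation p = 0.714 over 35 splits), and its sign turned without control heart 3 (-0.0045) or transferred heart 2 (-0.011). Across hearts the receptors had an r of 0.78 (exact permutation p = 0.0337, 0.236 adjusted over 21 pairs), and r was 0.22 without transferred hearts 1 and 3, the farthest from the median of Npr1.

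Corin (chromosome 5, positions 72299948 to 72504540, minus strand) was the gene of the 7 with the clearest difference. It was at 306.2, 306.4, 257 and 298 CPM in control hearts 1 to 4 and at 361, 453 and 372 CPM in transferred hearts 1 to 3. Every transferred heart was above every control heart, and the highest value was in transferred heart 2, where Nppa and Nppb were lowest. The mean was 292 ± 23.8 CPM in controls (SD, n = 4) and 395 ± 50.2 CPM after transfer (SD, n = 3), 1.35-fold higher (95% interval from 1.16-fold to 1.58-fold). The log2 fold change of 0.44 (SE 0.10) had an unadjusted p-value of 0.00158 in the edgeR test and did not pass after adjustment over all genes (edgeR adjusted p = 0.117). It ranked 104 of 7667 by p-value. Over the 7 hearts, Corin and Nppa had an r of -0.51 (exact permutation p = 0.246, 0.574 adjusted over 21 pairs). This r was 0.32 without transferred hearts 1 and 2, so the opposition rested on them.

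Whether Corin passed depended on the test. DESeq2 gave an adjusted p of 0.0095, and edgeR with every gene of at least 1 count kept in the test gave 0.0452, where 0.668% of 12132 genes passed. Over all 14 alternatives the adjusted p ran from 0.0095 to 0.348, and the log2 fold change from 0.33, without transferred heart 2, to 0.53, in the 5 hearts with numbers alone. Between the 2 hearts with letters it was 0.24. The direction was the same in both identifier forms and in all 14 alternatives. As the groups did not overlap, subsets of the hearts were bound to give this direction, so it adds no separate support.

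Pcsk6 (chromosome 7, positions 65862136 to 66050386, plus strand) was set by a single heart. It was at 224, 226, 218 and 263 CPM in control hearts and at 351, 185 and 211 CPM in transferred hearts. Transferred heart 1 was above all control hearts and the other transferred hearts were below all of them. The log2 fold change was 0.10 (95% interval from -0.36 to 0.55, edgeR adjusted p = 0.890), and -0.24 without transferred heart 1 (edgeR adjusted p = 0.323). It was 0.65 between the 2 hearts with letters and -0.25 within the 5 hearts with numbers alone, so the direction differed between the identifier forms. The difference between the forms was not tested.

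Mme (chromosome 3, positions 63295211 to 63383713, plus strand) was the only other gene of the 7 whose direction was the same in all 14 alternatives. It was at 61.5, 56.9, 43.6 and 61.3 CPM in control hearts and at 54.3, 30.3 and 39.2 CPM in transferred hearts. Transferred hearts 2 and 3 were below every control heart, but transferred heart 1 lay inside the control range. The log2 fold change was -0.44 (95% interval from -0.87 to 0.00, unadjusted p = 0.0505, edgeR adjusted p = 0.401). It was -0.68 without transferred heart 1 (edgeR adjusted p = 0.104) and -0.25 without transferred heart 2 (edgeR adjusted p = 0.735). Fibroblast markers summed to between 5311 and 7180 CPM in control hearts and between 4953 and 7601 CPM in transferred hearts, and none of the 7 tested reached an unadjusted p of 0.05. Most of this sum was Gsn, which encodes gelsolin, with a mean of 3884 CPM in control and 4331 CPM in transferred hearts. The part of fibroblasts in the level of Mme was not tested.

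**Figure D3:**
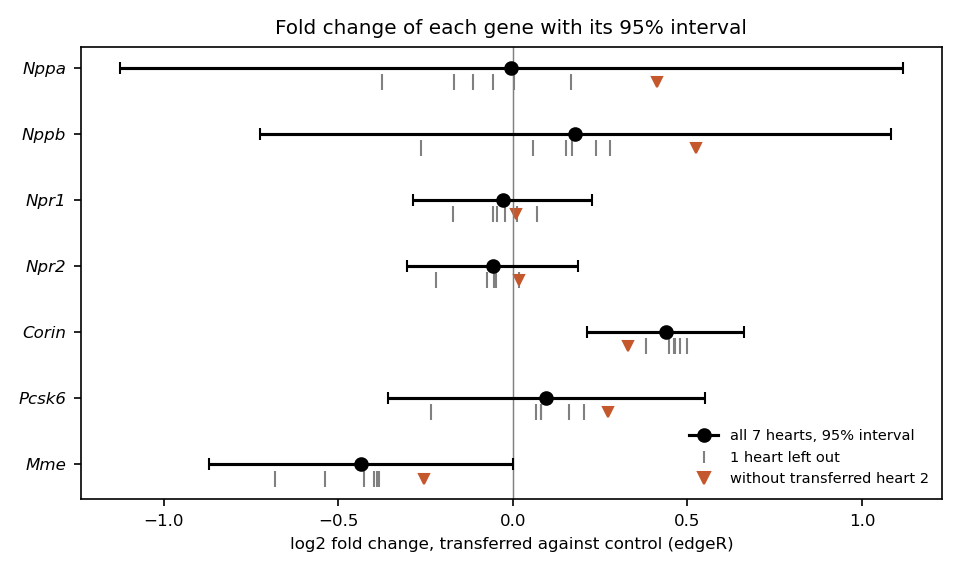
Log2 fold change of each gene in transferred against control hearts by edgeR (black point) with its 95% interval, and the value after leaving out 1 heart at a time (grey ticks, with an orange triangle for transferred heart 2). The interval of Corin lies above 0, those of the other 6 genes reach or cross 0, and leaving out transferred heart 2 moves Nppa from 0.00 to 0.41.

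Ordered by level per kilobase of exon, the control hearts gave Nppa at 3332 ± 821 CPM per kilobase and Nppb at 521 ± 108 CPM per kilobase (SD, n = 4). Corin followed at 54.8 ± 4.46 and Pcsk6 at 54.2 ± 4.80 CPM per kilobase, a pair that did not differ beyond its spread. Then came Npr2 at 17.2 ± 0.419, Npr1 at 12.7 ± 0.816 and Mme at 8.31 ± 1.25 CPM per kilobase (SD, n = 4). In transferred hearts the order was the same, with Corin at 74.2 ± 9.42 and Pcsk6 at 57.9 ± 20.9 CPM per kilobase, again overlapping, and Npr2 at 16.5 ± 3.05 against Npr1 at 12.4 ± 2.11 CPM per kilobase (SD, n = 3). Nppa was in place 17 of 7667 tested genes by this measure and took from 0.0976% to 0.391% of the counts of a heart in the table.

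Transferred heart 2, with the least Nppa and Nppb, had by far the highest sum of neutrophil markers. Neutrophil markers, of which 7 were tested, summed to between 18.8 and 25.6 CPM in control hearts and to 35.5, 295 and 57.1 CPM in transferred hearts 1 to 3. In transferred heart 1 most of the excess was Itgam, an integrin subunit that macrophages express too, at 22.4 CPM against a control mean of 11.4, while S100a9, Mmp9, Csf3r and Cd177 lay inside the control range. S100a8, a calcium-binding protein of neutrophils, was at 2.13, 72.3 and 9.64 CPM in transferred hearts 1 to 3, and the means of S100a9, Cxcr2, Csf3r and Mmp9 were likewise carried largely by transferred heart 2.

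Macrophage markers, of which 8 were tested, summed to between 442 and 651 CPM in control hearts and to 1070, 1155 and 782 CPM in transferred hearts. Of the macrophage markers 2 rose, C1qb, a complement component, by 0.98 and the mannose receptor Mrc1 by 0.77 on the log2 scale (edgeR adjusted p = 0.0384 for each). All 8 were higher with an unadjusted p under 0.05, against 12.4% of all tested genes in either direction, and in 7 of the 8 the groups did not overlap, against 11.2%. The count of 2 was 0 without any single control heart or transferred heart 1 or 2, and 6 without transferred heart 3. None of the neutrophil markers passed in edgeR, while all 7 had an unadjusted p under 0.05 (12.4% of all tested genes) and DESeq2 called 5 (3.02% of its genes). For Itgam the log2 fold change was 1.13 (edgeR adjusted p = 0.0642), and for Cd177 it was 1.93 (edgeR adjusted p = 0.183). Cd177 was at 0.912, 3.39 and 1.48 CPM in transferred hearts 1 to 3 against a control mean of 0.499, so transferred heart 2 carried much of this value too. Without transferred heart 3, 1 neutrophil marker passed. No tested marker of either list was at 0 in any heart. The part of these cells in the levels of Nppa and Nppb was not tested. In transferred heart 2 the ventricular sum was 1.01 times and the atrial sum 0.971 times the control mean. The atrial sum is carried by Pam (2889 CPM in that heart) and Kcnk3 (897 CPM), and single atrial genes lay farther off. Sbk3 was at 15.3 CPM there against a control mean of 3.38, Kcna5 at 47.7 against 31.8, and Sbk2 at 20.8 against 28.1 CPM.

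**Figure D4:**
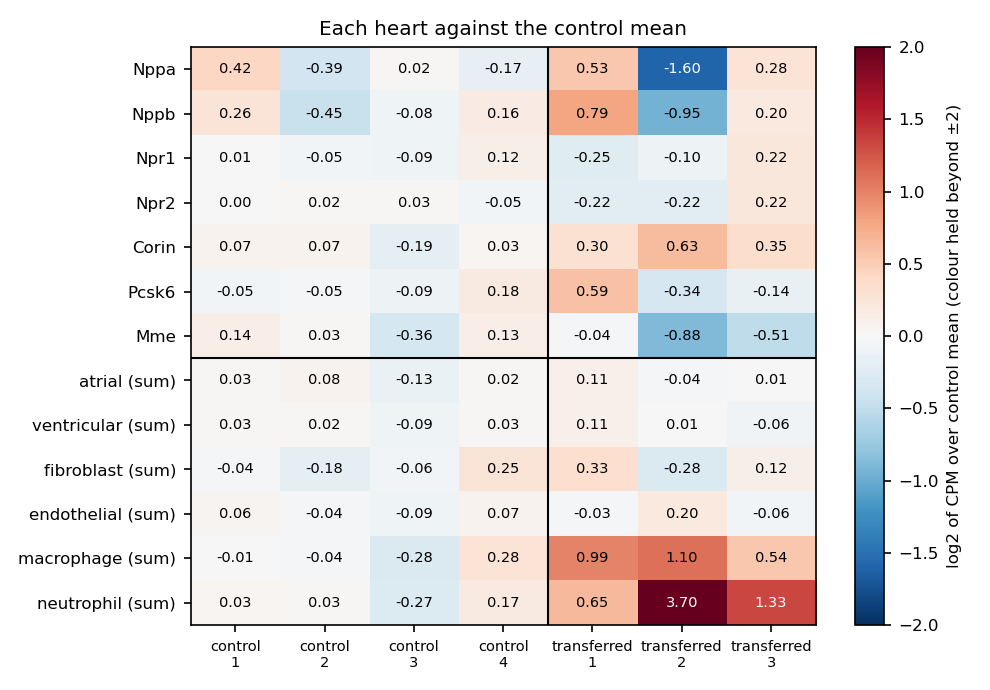
Log2 of each heart's level over the mean of the control hearts, for the 7 genes (above the line) and for the summed CPM of 6 marker lists (below it), with columns for the 4 control and 3 transferred hearts. Transferred heart 2 combines the lowest Nppa (-1.60) and Nppb (-0.95) with the highest Corin (0.63), while its ventricular sum is near that of control hearts.

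The genes whose log2 CPM over the 7 hearts was most like Nppa, among 6998 genes that averaged 1 CPM or more and had counts in every heart, were Zfp593 (r of 0.97), Nat10 (0.94), Gm9054 (0.93), Nppb (0.92) and Pianp (0.92). The most opposite were Zfp784 (-0.99), Kcna5 (-0.99) and Dnttip2 (-0.97). Kcna5, an atrial potassium channel subunit, was at 27.3, 35.6, 31.5 and 32.6 CPM in control hearts and at 28.6, 47.7 and 28.3 CPM in transferred hearts, so it was highest where Nppa was lowest. For Nppb the most alike were Prox1 (0.99), Prrc2b (0.97), Gsn (0.95), Mybpc3 (0.95) and Smyd5 (0.94), and the most opposite Lmo4 (-0.97), Klf13 (-0.94) and Gm9169 (-0.94). Prox1, a transcription factor gene, was at 242, 215, 224 and 238 CPM in control hearts and at 264, 203 and 246 CPM in transferred hearts, a much narrower range than that of Nppb. These were picked as the extremes of 6998 values over 7 hearts and carry no test.

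The rest of the peptide system was covered in part only, through 5 tested genes of a list of 9. None of the 5 had an adjusted or unadjusted p-value under 0.05. Their median log2 fold change was 0.12. Furin, the convertase that cuts the B-type precursor, averaged 326 ± 52.6 CPM in controls (SD, n = 4) and 291 ± 26.5 CPM after transfer (SD, n = 3), which is -0.17 as a log2 fold change (edgeR adjusted p = 0.662). Dpp4, a peptidase that can trim B-type peptide, had a log2 fold change of 0.42 (SE 0.32, edgeR adjusted p = 0.644). Nppc, the gene of C-type natriuretic peptide, was under the filter, with 9 counts over the 4 control hearts and 11 over the 3 transferred hearts. The clearance receptor Npr3 is not analysed here.

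Downstream of the receptors, the 10 tested genes of cyclic GMP synthesis, breakdown and kinases included none with an adjusted or unadjusted p-value under 0.05, and their median log2 fold change was 0.01. Pde3a, a phosphodiesterase inhibited by cyclic GMP, averaged 241 ± 4.43 CPM (SD, n = 4) and 267 ± 19.2 CPM (SD, n = 3), or 0.15 as a log2 fold change (edgeR adjusted p = 0.458). For Pde5a, the phosphodiesterase specific for cyclic GMP, the value was -0.18 (edgeR adjusted p = 0.625). Of 14 listed substrates and effectors of the cyclic GMP kinase, 9 were tested, with a median of -0.15. Among the 9, 1 rose and none fell, against 0.13% higher and 0.104% lower of all tested genes. Before adjustment 2 of the 9 had an edgeR p under 0.05, against 12.4% of all tested genes. The gene that rose was Rgs2, a brake on Gq signalling whose protein the kinase phosphorylates. It was at 47.8, 46.5, 47.4 and 49.9 CPM in control hearts and 70.2, 97.4 and 78.1 CPM in transferred hearts, with a log2 fold change of 0.77 (SE 0.11, edgeR adjusted p = 0.0384). The list had 1 gene past the threshold with RLE or total count scaling, no filter, DESeq2, or without transferred heart 1 or 3, and had 0 in the other 8 of 14 alternatives, among them leaving out any control heart or transferred heart 2. Hspb6, a small heat shock protein, had a log2 fold change of -0.42 (unadjusted p = 0.038, edgeR adjusted p = 0.369).

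Of 24 listed transcription factors that act on the Nppa and Nppb promoters, only 10 were in the count table and tested. No GATA factor was among them, so the list was covered in part only. None of the 10 passed after adjustment and 1 had an unadjusted p under 0.05, a share near the 12.4% of all tested genes. That was Mef2a, at 501, 479, 479 and 466 CPM in control hearts and 554, 580 and 538 CPM in transferred hearts, with a log2 fold change of 0.21 (SE 0.07, edgeR adjusted p = 0.243). The groups of Mef2a did not overlap, as in 11.2% of all tested genes. For Tead1, whose protein binds the M-CAT element, the value was -0.20 (edgeR adjusted p = 0.460). The median of the list was 0.08.

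Of 27 listed genes of haemodynamic stress and the fetal programme, only 11 were in the count table and tested, so the programme was covered in part only. None of the 11 had an adjusted or unadjusted p-value under 0.05, and the median log2 fold change was 0.03. Xirp2, an actin-binding protein of the intercalated disc, averaged 1882 ± 341 CPM (SD, n = 4) and 1470 ± 332 CPM (SD, n = 3), or -0.36 as a log2 fold change (edgeR adjusted p = 0.452). Adra1d, an adrenergic receptor gene, had -0.34 (edgeR adjusted p = 0.459).

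**Figure D5:**
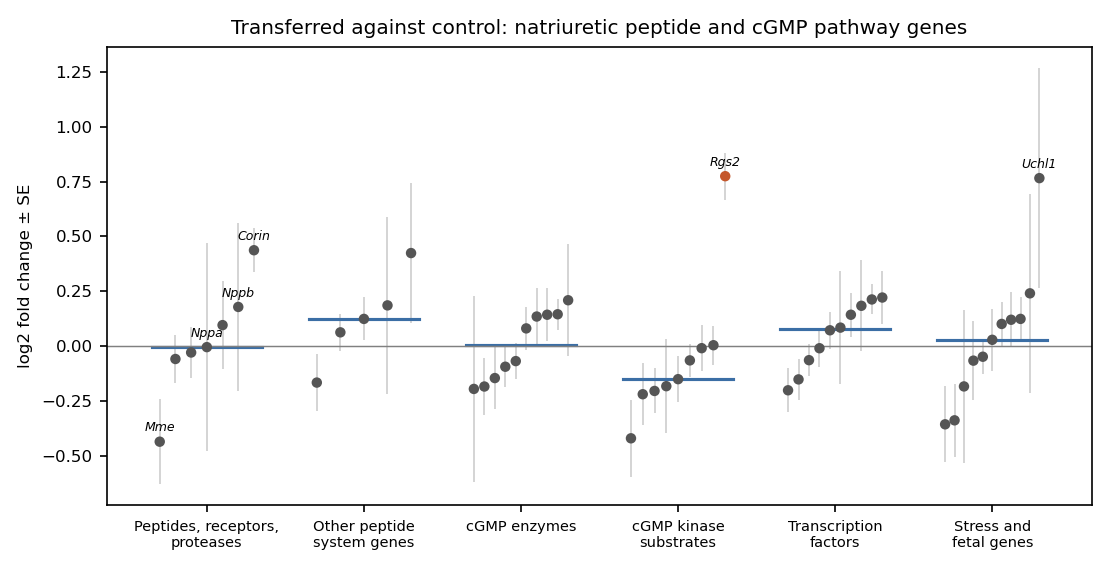
Log2 fold change with its SE for the 7 genes and for 5 lists of the peptide and cyclic GMP pathway, each point a tested gene sorted by value within its list, the blue line the list's median and orange a gene with an edgeR adjusted p-value under 0.05. Rgs2 is the only orange point, and the medians lie between -0.15 and 0.12.

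Among markers of the cells that make or receive these peptides, no gene of the atrial, ventricular, conduction, endothelial, fibroblast, mural or lymphocyte lists had an edgeR adjusted p-value under 0.05. Median log2 fold changes were 0.08 for 10 atrial, 0.00 for 7 ventricular, 0.18 for 3 conduction, 0.01 for 8 endothelial, -0.01 for 7 fibroblast and -0.10 for 4 mural genes. The 4 lymphocyte genes had a median of 0.11, against 0.90 for the 8 macrophage genes and 1.93 for the 7 neutrophil genes. The smallest p-values in the atrial list belonged to Dkk3, at 0.35 on the log2 scale (edgeR adjusted p = 0.550), and Sbk3, at 1.18 (edgeR adjusted p = 0.588), and in the ventricular list to Tnnt2 (0.13) and Tnni3 (0.09). In the conduction list they were Cntn2, with 1.16 and an SE of 1.12, and Tbx3, with 0.18. The values of Sbk3 and Cntn2 rested on transferred heart 2. Sbk3 was at 5.22, 15.3 and 3.01 CPM in transferred hearts 1 to 3 against a control mean of 3.38, and Cntn2 at 11.9, 29.5 and 2.42 CPM against 6.41.

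Of the 8 tested endothelial and endocardial genes, 3 had an unadjusted p under 0.05, against 12.4% of all tested genes. The log2 fold change was -0.28 for Tie1, an endothelial receptor kinase (edgeR adjusted p = 0.185), and 1.17 for Vwf, the clotting protein of endothelial cells (edgeR adjusted p = 0.200). Vwf was at 177, 381 and 159 CPM in transferred hearts 1 to 3 against a control mean of 106. Transferred heart 2 thus carried much of its value, though all transferred hearts were above all control hearts. The third was Emcn, an endothelial sialomucin, at 0.26 (edgeR adjusted p = 0.350). Col1a2 and Col3a1, the collagen genes of the fibroblast list, had -0.20 and -0.12, and the mural genes Rgs5 and Kcnj8 had -0.20 and -0.11. In the lymphocyte list, Ptprc, which encodes CD45 and is made by all leukocytes, was at 1.12 (edgeR adjusted p = 0.0572). Only 4 of the 12 genes of this list were tested. The other 3, used as T cell markers, went both ways. Cd247 was at -1.06 (edgeR adjusted p = 0.278), Cd28 at -0.13 (edgeR adjusted p = 0.771) and Cd4 at 0.35 (edgeR adjusted p = 0.800). All 3 had counts in every control heart too, Cd28 averaging 28.6 CPM there, and which cells these came from was not tested.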

How the data were processed

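RNA was measured in 4 control and 3 transferred hearts. The authors deposited estimated counts per gene, not normalized, over combined exons. The submitters' processing notes name bcl2fastq 2.20.0.422, cutadapt 2.5, STAR 2.7.2b, featureCounts 1.6.4, DESeq2 1.22.2 and build GRCm38.p6, without saying how reads with several matches were divided. Of the deposited values, 4.63% had a fraction, and counts were rounded. The 20343 complete rows end on chromosome 8 at a gene starting at position 25129815, and 1 unfinished row was left out, so totals are not library depth. Genes elsewhere are not analysed here. A level of 3 counts corresponds to 0.115 to 0.189 CPM, which covers counting error only.

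Genes were filtered with filterByExpr, scaled with TMM and fitted with the robust quasi-likelihood test of edgeR 4.0.16 in R 4.3.3, with Benjamini-Hochberg adjustment over 7667 genes and a threshold of 0.05. The biological coefficient of variation was 0.164. Standard errors and 95% intervals came from the F statistic and its degrees of freedom. Ratios and correlations used exact two-sided permutation tests, with correlations over 5040 orders. Alternatives were RLE and total count scaling, no filter, DESeq2 1.42.0, limma-voom (limma 3.58.1), the identifier form as a covariate, the 5 hearts with numbers alone, leaving out each heart, and for ratios 0.5 counts added or no division by exon length. Same-group libraries differed by 17.4 to 77.2 chi-square units per degree of freedom, so none looked like a repeat.

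The 7 genes and the 14 gene lists were chosen with earlier results of these data known. Named beside the 7 were list genes past the threshold, the 2 of smallest p-value in each list and the 5 most and 3 least like Nppa and Nppb; genes named outside this rule, chosen after their values were seen, are Myl2, Kcnk3, Pam, Sbk2, Bmp10, Nppc, Spag8, S100a8, S100a9, Cxcr2, Csf3r, Mmp9, Emcn, Cd28, Cd4 and Cd2, and 3 neighbours of the locus; 1 further neighbour is not reported here. Promoter letters came from RefSeq (GRCm38.p6), where all 7 genes had a window.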

Additional observations from a re-analysis of the deposited data

Results flagged for a closer look

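Of 66 results checked for a control heart far from the other 3, 3 were marked, against 3.30 expected by chance, and all 3 were low values of control heart 3. Corin in control heart 3 measured 8.004 log2 CPM, below the 8.22 to 8.26 of the remaining 3 controls. Without control heart 3 the log2 fold change of Corin was 0.38 (edgeR adjusted p = 0.191). The summed log2 CPM of the further ligand, clearance and processing genes was 11.6 in that heart, against 11.80 to 11.81, and that of the ventricular and general cardiomyocyte markers was 16.5, against 16.62 to 16.63.

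The filter on low counts removed 7 of the listed genes. One of them was Cd2, a lymphocyte surface gene, whose counts added up to 12 after transfer and to 2 in controls, with 3 to 5 counts in each transferred heart and at most 1 in each control heart.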

How the results depend on the processing

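No paired analysis was possible because the groups share fewer than 2 numbers in the labels. Corin and Mme kept their direction in all 14 alternatives, and the log2 ratio of Nppb to Nppa in all 10 of its own. For Corin, whose groups did not overlap, subsets of the hearts were bound to keep it. Corin passed with no filter beyond 1 count (log2 fold change 0.44) and with DESeq2 (0.44), where 1 of the 7 genes was past the threshold in each, and in no other alternative. In the 5 hearts with numbers alone the sign changed for Nppb (-0.16), Npr1 (0.079), Npr2 (0.023) and Pcsk6 (-0.25). Leaving out 1 heart at a time gave log2 fold changes from -0.37 to 0.41 for Nppa, -0.26 to 0.53 for Nppb, -0.17 to 0.069 for Npr1, -0.22 to 0.017 for Npr2, 0.33 to 0.50 for Corin, -0.24 to 0.27 for Pcsk6 and -0.68 to -0.25 for Mme, with none of the 7 genes past the threshold. The difference in the log2 ratio of Npr1 to Npr2 ran from -0.011 to 0.090, with a sign change without control heart 3 (-0.0045) and without transferred heart 2. Over the whole table, 18 genes passed (10 higher, 8 lower). Total count scaling gave 35 (26 higher), no filter 81 (66 higher, 15 lower) and DESeq2 250 (191 higher, 59 lower). Limma-voom, the identifier covariate and the 5 hearts gave 0, with 907, 973 and 1054 at an unadjusted p-value under 0.05. Leaving out 1 heart gave from 0 to 140 (0 to 128 higher, 0 to 12 lower). The 1 gene of the cyclic GMP kinase substrates became 0 with limma-voom, the covariate and the 5 hearts and ran from 0 to 1 with 1 heart left out. The 2 macrophage genes became 5 with total count scaling, 4 with no filter, 8 with DESeq2, 0 with limma-voom, the covariate and the 5 hearts, and 0 to 6 with 1 heart left out. Neutrophil genes went from 0 to 1 with no filter, 5 with DESeq2 and 0 to 1 with 1 heart left out. Lymphocyte genes went from 0 to 1 with total count scaling, no filter and DESeq2, and 0 to 1 with 1 heart left out. For these shifts the cause was not tested. Pairs past the threshold were not recounted with hearts left out.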
